A study of Mus musculus with 2 samples.

Results

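Ly49-positive PD-1-negative CD8 T cells were taken as the CD8 barcodes of a B16 melanoma T cell capture that held transcript of at least 1 of 4 Ly49 receptor genes (Klra1, Klra6, Klra7 and Klra9) and lacked Pdcd1, the gene of the inhibitory receptor PD-1. A barcode is the tag of 1 microwell bead and was taken as 1 cell, although it can hold RNA of more than 1. Barcodes entered with at least 500 genes detected, at most 25% of counts from mitochondrial genes, and 5 or more counts of Cd8a or Cd8b1. They had under 5 counts of Cd4 (helper T cells), of Csf1r and of Adgre1 (macrophages), and under 10 of Mlana (melanoma cells). A gene was taken as present at 5 or more counts. The rule found 143 members among 4131 CD8 barcodes, 11318 barcodes that passed the quality limits and 12016 in all. The members made up 3.46% of CD8 barcodes (95% exact binomial interval 2.93 to 4.07, which covers counting error only, here and below).

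The capture pooled wild-type (WT) T cells with T cells labelled Nr4a KO, and the title of the series names deletion of Nr4a1 and Nr4a2 and the TCF1-bearing precursors of exhausted CD8 T cells. All cells came from subcutaneous tumours of B16F10, a transplantable mouse melanoma line, at day 14, and were positively selected for CD3 after a Percoll gradient, with about 20000 cells loaded on a BD Rhapsody array for TAS-Seq, a 3′ cDNA method. The sources used here give no mouse strain, age, number of animals, or promoter or Cre behind the deletion. The labels list 6 hashtags without naming the genotype of any, so no value below compares genotypes, and every member can be of either. The capture is a single sample: cells are not replicates, so no p-value was computed and differences are described by their size.

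Ly49 receptors are lectin-like proteins encoded by the Klra gene cluster of mice and best known from natural killer (NK) cells. Most bind class I MHC molecules and inhibit the cell through a tyrosine-based motif that recruits the phosphatase SHP-1. Each cell expresses its own selection of the family. Among CD8 T cells, Ly49 receptors are known from memory-phenotype cells and from cells described as regulatory, in which the transcription factor Helios (Ikzf2) is used as a marker.

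The 4 genes that chose the members encode Ly49A (Klra1), Ly49F (Klra6), Ly49G (Klra7) and Ly49I (Klra9). All lie on the minus strand of chromosome 6 in GRCm38, at 130363917 to 130386874, 130013033 to 130026954, 130218605 to 130233322 and 130178675 to 130193112. Klra7 was present in 88 members, Klra6 in 50, Klra1 in 33 and Klra9 in 30. Within the members 25 of the 50 barcodes with Klra6 also held Klra7 (50%, interval 35.5 to 64.5), 5 of the 30 with Klra9 did (16.7%, interval 5.64 to 34.7), and 13 of the 33 with Klra1 did (39.4%, interval 22.9 to 57.9). These combinations are among the genes that chose the members and are a description. The promoters of Klra6, Klra7 and Klra9 are shown because Klra6 had the highest and Klra9 the lowest share with Klra7, from the RefSeq table for GRCm38.p6, 250 bases before to 50 after the start, 5′ to 3′ on the gene's strand. Capitals mark the letters CTTTGA, the core bound by TCF/LEF factors such as TCF1, which was searched on both strands. The windows are chr6:130026905-130027204 for Klra6, chr6:130233273-130233572 for the upstream start of Klra7 and chr6:130193063-130193362 for Klra9.
Klra6: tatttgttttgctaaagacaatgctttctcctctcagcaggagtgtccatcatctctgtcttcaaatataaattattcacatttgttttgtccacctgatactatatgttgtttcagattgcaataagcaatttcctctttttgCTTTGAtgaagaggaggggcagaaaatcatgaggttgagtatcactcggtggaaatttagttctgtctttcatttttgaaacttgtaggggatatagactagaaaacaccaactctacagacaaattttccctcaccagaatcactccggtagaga
Klra7: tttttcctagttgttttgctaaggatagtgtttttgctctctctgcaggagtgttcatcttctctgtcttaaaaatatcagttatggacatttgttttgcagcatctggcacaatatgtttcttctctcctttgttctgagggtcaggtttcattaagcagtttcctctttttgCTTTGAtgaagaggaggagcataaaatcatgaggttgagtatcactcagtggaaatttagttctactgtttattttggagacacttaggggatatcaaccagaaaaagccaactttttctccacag
Klra9: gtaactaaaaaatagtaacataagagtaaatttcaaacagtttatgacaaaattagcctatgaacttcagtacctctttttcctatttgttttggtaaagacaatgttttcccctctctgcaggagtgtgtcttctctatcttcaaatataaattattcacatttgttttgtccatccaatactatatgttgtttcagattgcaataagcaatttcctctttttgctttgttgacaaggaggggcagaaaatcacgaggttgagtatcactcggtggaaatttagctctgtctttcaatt

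The Klra6 window and that of the upstream Klra7 start were identical at 68.2% of aligned positions, Klra6 and Klra9 at 52.5%, and the upstream Klra7 start and Klra9 at 50.8%. The other Klra7 start was identical to Klra6 at 45.7% and to Klra9 at 44.8%. Klra1 was identical to the upstream Klra7 start at 44.2% and to the other at 49.7%, so the identity to either start did not follow the order of the shares with Klra7. The letters CTTTGA occurred in 3 of the 13 Klra promoters of the table (Klra6 and both starts of Klra7) and in 16.0% of all 32851 promoters. They were not found in the windows of Klra9 and Klra1. A match is a description of the letters and not a binding site.

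Members mostly held a single gate gene. The numbers with 1, 2, 3 and 4 of the gate genes were 93, 43, 6 and 1. Klra7 alone accounted for 51 members, Klra6 with Klra7 for 21, Klra9 alone for 17, Klra6 alone for 14, Klra1 alone for 11, and Klra1 with Klra7 for 10. The highest gate gene reached a median of 15 counts and a maximum of 226, and 45 members lay just inside the limit at 5 to 9 counts. Just outside it, 77 of the 2034 PD-1- barcodes without Ly49 had a highest gate gene of 1 to 4 counts. Pdcd1 was at 0 in 125 members and at 1 to 4 counts in 18. Members were chosen by these counts, of the Klra genes, the Cd8 genes and Pdcd1, which are given as a description.

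**Figure D1:**
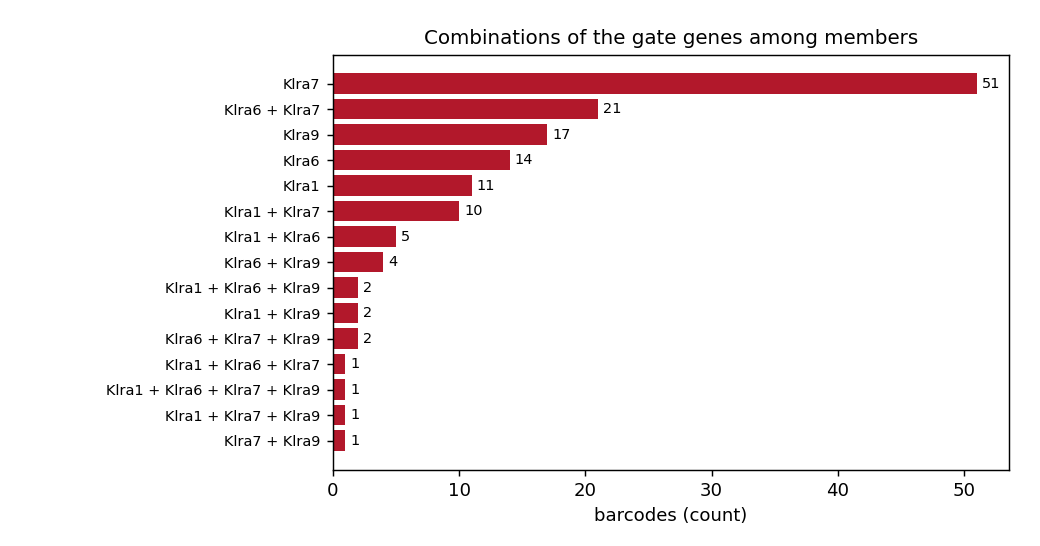
Number of members (bars, barcode count on the x axis) with each combination of the 4 gate genes at 5 or more counts. Klra7 alone was the commonest combination (51) and Klra6 with Klra7 the next (21).

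Among the 18 Klra genes outside the gate, 2 were present in at least 5% of members. Klra3, the gene of Ly49C, was present in 13.3% of members (19 barcodes, interval 8.19 to 19.97) against 3.74% of PD-1- CD8 barcodes without Ly49, and also in 15.7% of macrophage barcodes. The pseudogene Klra13-ps was present in 12.6% against 0.246%. Reads of close relatives may have been split between genes: of the 50-base words in the last 400 transcript bases, 46.4% of those of Klra9 recurred in another Klra gene (33.9% in Klra3), 35.3% of those of Klra7 (in Klra13-ps), 3.13% of those of Klra6 and 0% of those of Klra1. The values of Klra3, Klra7, Klra9 and Klra13-ps are therefore uncertain. The transcripts compared did not include all Klra genes of the count table. Klra15, Klra21 and Klra23, which had counts in members, were missing. The low values of Klra6 and Klra1 thus cover only part of the family.

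The label was checked against T cell and other lineage genes. At least 1 of the Cd3, Trac and Trbc genes was present in 142 of 143 members, and 3 or more of the 6 in 124. Trac, the T cell receptor alpha constant gene, was present in 85.3% of members (78.4 to 90.7) and 4.30% of melanoma barcodes, at median total counts of 23625 and 153338. Cd8a was present in 127 members and Cd8b1, the beta chain of the CD8 coreceptor of conventional CD8 T cells, in 71. The members with Cd8a only thus numbered 72 (50.3%, interval 41.9 to 58.8), against 337 of 2034 PD-1- barcodes without Ly49 (16.6%, interval 15.0 to 18.3). The marker Cd8b1 was therefore absent at the gate from more than 1 in 2 members, and "CD8" here means the rule.

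The background of the Cd8 genes was read in barcodes that should lack them. Cd8a was present in 2.92% of melanoma barcodes and in 9.49% of barcodes with Cd4, where Cd8b1 was present in 12.1%. In macrophage barcodes, taken without a limit on Cd8, the shares were far higher, with Cd8a in 59.1% and Cd8b1 in 60.1%, at a median of 62 and 50 counts where present and 91595.5 total counts. The members and comparators had under 5 counts of the macrophage genes Csf1r and Adgre1. Of all 751 Ly49 barcodes without Cd4 and Pdcd1, only the 143 members held a Cd8 gene (19.0%, interval 16.3 to 22.0), and Cd8a was present in 16.9% and Cd8b1 in 9.45%. The Cd8a share in these Ly49 barcodes was above that in Cd4 barcodes, and their Cd8b1 share was not, at median total counts of 17526 and 25507. Where Cd8a was present in members its median was 17 counts, against 26 in PD-1- barcodes without Ly49. How many members took their Cd8a counts from free RNA, or from a second cell in the same barcode, was not tested. Main values are therefore also given by Cd8 gene.

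Markers of other lineages were near or below their share in PD-1- barcodes without Ly49, except for part of the NK list. Ncr1, the NK cell receptor NKp46, was present in 2 members (1.40%, interval 0.170 to 4.96). Klrb1c (NK1.1) was present in 7.69% of members (11 barcodes, interval 3.90 to 13.3) and 0.787% of PD-1- barcodes without Ly49. Fcer1g, a signalling adaptor, was present in 28.7% (21.4 to 36.8) against 6.69%, and in 98.7% of macrophage barcodes. At least 1 of the 6 NK markers was present in 39.2% of members and 21.4% of these comparators, with summed levels of 518 and 604 CPM (counts scaled to a common total), where Gzma is in the list. None of 4 B cell markers had a count in members, and 3 of 4 innate-like T cell markers were at 0. Trdc, the only gamma delta marker measured, was present in 2 members. A regulatory T cell marker (Foxp3 or Il2ra) was present in 11.2% of members and 14.6% of PD-1- barcodes without Ly49. At least 1 of 7 macrophage markers was present in 11.2% of members against 15.4%, and at least 1 of 4 melanoma markers in 25.2% against 22.6%. Without barcodes holding Lyz2, C1qa, Pmel, Cd79a or Ncr1, 73.5% of the genes called below against all CD8 barcodes without Ly49 stayed called. Against the PD-1- ones 74.2% did, and all called genes kept their sign. The part of the other markers, Klrb1c and Fcer1g among them, was not tested.

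Members were compared with all 3916 CD8 barcodes without the 4 Klra genes, which the rule names, and with the 2034 of them that also lacked Pdcd1, since the rule sets Pdcd1 in members only. Median total counts were 23625 in members, 28150 in the first comparator and 20696.5 in the second. For each gene, counts were summed over barcodes, scaled to CPM and set as a log2 ratio after adding 5 counts to each sum. Genes present in at least 5% of barcodes of 1 arm were examined. A gene was called when the ratio was at least 1 in size and had the same sign within every hashtag with 20 or more barcodes in both arms. Only hashtag A0301, with 32 members, met that number, so the sign condition rests on a single hashtag.

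Against all CD8 barcodes without Ly49, 252 of 6725 genes were called higher (3.75%) and 332 lower (4.94%), with a median log2 ratio of -0.05 over the genes examined. With barcodes thinned to the same 10000 counts, 57.1% of calls were higher, and with every barcode weighted equally 26.3%, against 43.2% as first computed. Against PD-1- CD8 barcodes without Ly49, 151 of 6023 were called higher (2.51%) and 167 lower (2.77%), with a median of -0.01. There the share of calls that were higher was 47.5%, and 59.3% and 31.98% under the same settings. The main contrast was between genes of naive and recirculating T cells, higher in members, and genes of cytotoxicity, inhibitory receptors and a few chemokine receptors, lower in members than in both comparators. Against the comparators with Tcf7 described further on, Gzmk was the only gene of the cytotoxic and inhibitory receptor lists called lower.

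Genes of naive and recirculating T cells were higher in members. Of 13 examined in this list 10 were called higher and 0 lower against all CD8 barcodes without Ly49 (median log2 ratio 1.69), and 7 higher and 0 lower against the PD-1- comparator (median 1.00). Tcf7 encodes TCF1, a factor of naive and stem-like T cells and the subject of the series. In members Tcf7 ranged from 0 to 2407 CPM per barcode with a median of 348, and in PD-1- barcodes without Ly49 the median was 0, with an upper quartile of 158. The ranges of both arms overlapped fully, and the comparator reached the higher maximum. Tcf7 was present in 60.8% of members (87 barcodes, interval 52.3 to 68.9), 16.2% of all comparators and 23.5% of PD-1- ones (21.7 to 25.5). The log2 ratios were 2.11 and 1.15.

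Klf2, a factor that maintains recirculation genes, was present in 40.6% of members (32.4 to 49.1), 9.32% of all comparators and 13.2% of PD-1- comparators. Melanoma and macrophage barcodes held Klf2 in 14.9% and 45.1%. Satb1, a chromatin organiser of T cell development, was present in 63.6%, 34.9% and 34.96%. Nsg2 was present in 22.4%, 3.91% and 5.36%. Id3, an inhibitor of E proteins, reached log2 ratios of 2.90 and 2.00 but was present in 5.59% of members only. S1pr1, the receptor for egress from tissue, was called against all comparators (log2 ratio 1.69) and had a ratio of 0.58 against the PD-1- ones, below the limit. Ccr7, the chemokine receptor of lymph node entry, was present in 18.2% of members and 16.2% of PD-1- comparators, with log2 ratios of 0.03 and -0.28. Il7r had ratios of 0.91 and 0.35, neither called.

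Ikzf2 was higher in members against each of the comparators used. It encodes Helios, and lies on chromosome 1 at 69531214 to 69687245 (GRCm38, minus strand). Its per-barcode level in members ran from 0 to 4079 CPM with a median of 54.8 and an upper quartile of 572, whereas the upper quartile of both comparators was 0. Ikzf2 was present in 40.6% of members (58 barcodes, 32.4 to 49.1), 15.8% of all comparators (14.7 to 16.96) and 11.8% of PD-1- comparators (10.4 to 13.2), with log2 ratios of 1.99 and 1.92. In melanoma barcodes, at a deeper median count, it was present in 1.95%. After thinning to 10000 counts it was present, at 2 or more counts, in 42.4% of members and 12.1% of PD-1- comparators.

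Ikzf2 was the only gene of the CD8 regulatory list called higher. Of 6 examined, 1 was higher and 0 lower against all comparators, and 1 higher and 1 lower against the PD-1- ones. The lower one was Fgl2, a secreted suppressive protein (21.0% of members, 30.2% of PD-1- comparators, log2 ratio -1.03). Il10 was present in 0 of 143 members (approximate upper limit 2.098%) and in 2.46% of PD-1- comparators (1.83 to 3.23). The exact interval of the members' share reaches 2.55% and overlaps that of the comparators. Il2rb, the receptor chain for interleukins 2 and 15 used to define such cells and memory-phenotype CD8 T cells, was present in 79.7% of members and 66.5% of PD-1- comparators. Its log2 ratio was 0.22 and it was not called.

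Memory-phenotype and innate-like genes differed unevenly. Of 14 examined, 1 was called higher against all comparators and 2 against the PD-1- ones, with medians of 0.01 and -0.05. Bcl2, an inhibitor of apoptosis, was present in 39.9% of members (31.8 to 48.4) and 14.8% of both comparators, at log2 ratios of 1.93 and 1.38. Melanoma barcodes, with deeper counts, held Bcl2 in 47.0%. Xcl1, a chemokine for cross-presenting dendritic cells, was present in 31.5% of members (24.0 to 39.8) and 6.24% of PD-1- comparators, at a 3.80-fold level. Against all comparators its log2 ratio of 1.52 was not called, because within A0301 it was -0.06. Ly6c2, a surface protein of memory CD8 T cells, was present in 87.4% of members (80.8 to 92.4) and 64.7% of PD-1- comparators, with median levels of 1920 and 855 CPM, and its log2 ratio of 0.63 was not called. Eomes and Tbx21, the T-box factors of effector and memory cells, had ratios of -0.04 and -0.42 against the PD-1- comparator.

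Cytotoxic genes were lower in members. Of 14 examined, 8 were called lower and 0 higher against all comparators (median log2 ratio -1.47), and of 12, 7 lower and 0 higher against the PD-1- ones (median -1.12). Gzmb, the apoptosis-inducing granzyme B, had a per-barcode median of 0 CPM in members and 465 CPM in PD-1- comparators, with maxima of 9727 and 39997. It was present in 32.2% of members (24.6 to 40.5) against 55.8% (53.6 to 58.0), a 2.38-fold lower level. Prf1 (perforin) was present in 11.2% against 28.5%, Ifng (interferon gamma) in 13.3% against 26.9%, and Gzmk in 3.497% against 13.7%. The chemokine gene Ccl4 was present in 16.8% against 26.2%, with a 3.74-fold lower level. Nkg7, a granule membrane protein, was present in 76.2% and 84.9% (log2 ratio -0.75, not called).

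Genes of inhibitory receptors, which the gate on Pdcd1 did not use, were lower in members. Of 6 examined, 4 were called lower and 0 higher against all comparators, and 3 lower and 0 higher against the PD-1- ones. There Pdcd1 was limited in both arms but was not equal. With barcodes thinned to the same depth, Pdcd1 was present, at 2 or more counts, in 0% of members and 6.71% of PD-1- comparators (5.60 to 7.97). Its levels were 4.32 and 27.0 CPM. The full comparator had no limit on Pdcd1 and held it in 46.2% of thinned barcodes. How much of the lower inhibitory receptor genes went with the Pdcd1 difference in either comparison was not tested. Ctla4 was present in 24.5% of members (17.7 to 32.4), 72.7% of all comparators and 59.2% of PD-1- ones (57.0 to 61.3). Lag3 was present in 23.1%, 60.7% and 43.2%, and Havcr2 (TIM-3) in 6.99%, 30.2% and 17.9%. Of 11 exhaustion and effector factors, 4 and 2 were called lower and 0 higher. They included Prdm1 (log2 ratios -1.93 and -1.99) and Irf4 (-1.44 and -1.90), while Tox was called against all comparators only (-1.18, and -0.86 against the PD-1- ones).

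Of 4 examined genes of residence and tissue entry, 3 were called lower against each comparator. Cxcr6, the receptor that retains CD8 T cells in tissue, was present in 15.4% of members (9.90 to 22.4), 47.5% of all comparators and 33.6% of PD-1- ones. The others were the migration receptors Ccr2 and Cx3cr1, with log2 ratios of -1.78 and -1.85 against the PD-1- comparator, so Cxcr6 was the only called gene of the list that is a marker of residence. The integrin genes of residence were too rare to be examined, Itga1 being present in 4.90% of members and 3.20% of PD-1- comparators and Itgae in 2.80% and 1.47%. The Nr4a genes, of which the title names Nr4a1 and Nr4a2, were not called. Nr4a1 was present in 35.7% of members and 33.6% of PD-1- comparators, Nr4a2 in 62.2% and 69.2%, and Nr4a3 in 43.4% and 36.4%, with ratios of -0.17, -0.45 and 0.18. Since WT and Nr4a KO cells are pooled, these levels mix both genotypes.

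**Figure D2:**
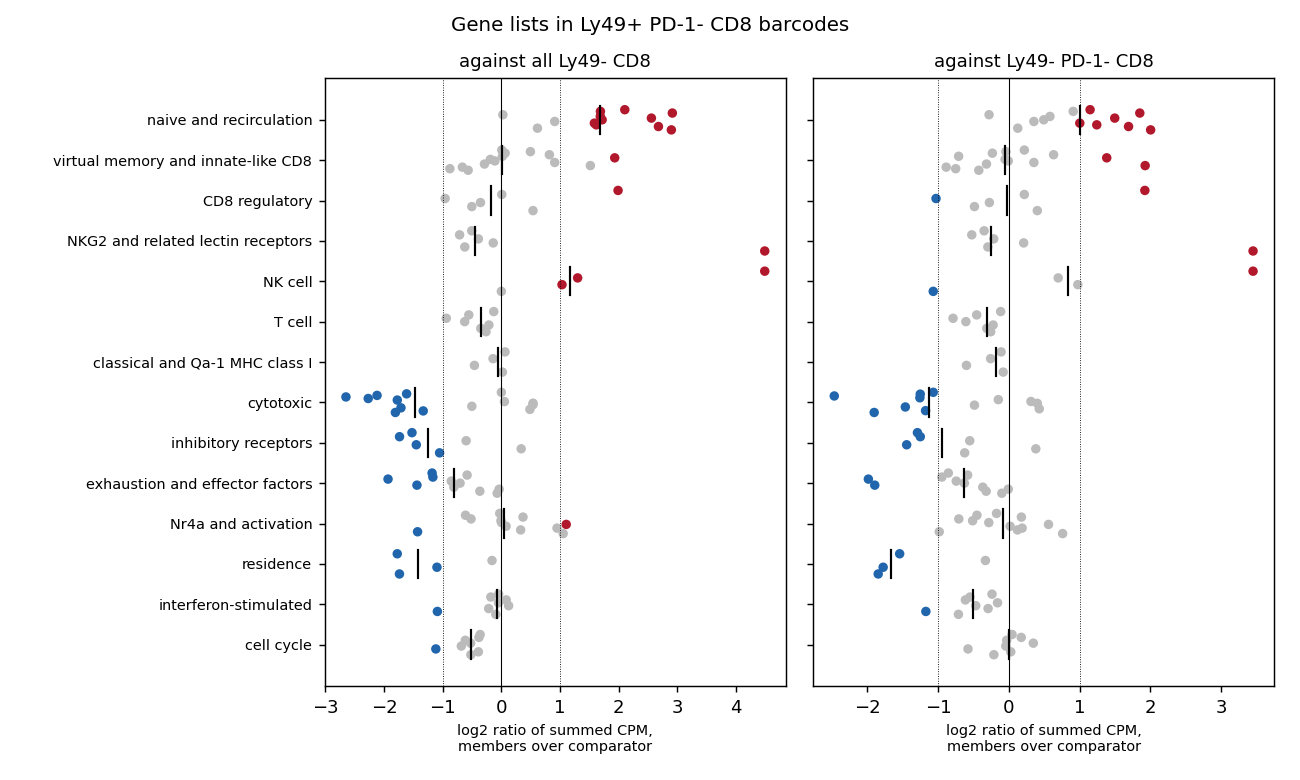
Log2 ratio of summed CPM (x axis) of each examined gene in 14 gene lists (rows), members over all CD8 barcodes without Ly49 (left) and over those without Pdcd1 (right). Each point is a gene, red where called higher, blue where called lower and grey otherwise; black ticks are list medians and dotted lines mark a ratio of 1 in size. Naive and recirculation genes lie to the right (medians 1.69 and 1.00) and cytotoxic genes to the left (medians -1.47 and -1.12).

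Ranked by ratio over all genes rather than by list, the 10 highest called genes present in at least 20% of members against all comparators included Pde2a, Nsg2, Klf2, Sidt1, Cd7, Tcf7, Ikzf2, Bcl2 and Cxcr4. Against the PD-1- comparator they included Cd7, Xcl1, Ikzf2, Pde2a, Nsg2, Sidt1, Klf2, Kctd12 and Bcl2. Cd7, an immunoglobulin family receptor of T and NK cells, was present in 42.0% of members (33.8 to 50.5) and 12.4% of PD-1- comparators, with 15.1% of its counts in members from a single barcode. Pde2a, a cyclic nucleotide phosphodiesterase, was present in 26.6% and 5.46%. Cxcr4, a homing receptor for CXCL12, was present in 49.7% and 18.8% (log2 ratios 1.89 and 1.15).

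The 10 lowest against all comparators were Mt2, Ccl4, S100a4, Cxcr6, Prf1, Mt1, Havcr2, AA467197, Ifng and Nrp1, and against the PD-1- comparator Ccl4, Cxcr6, S100a4, Nrp1, Ifng, Ctla4, Mt1, S100a6, Lag3 and Glrx. S100a4, a calcium-binding protein of activated and migrating cells, was present in 26.6% of members (19.5 to 34.6) and 54.6% of PD-1- comparators. The metallothionein genes Mt1 and Mt2 were present in 12.6% and 5.59% of members, and in 21.6% and 15.4% of PD-1- comparators. Melanoma barcodes held Mt1 in 85.0%. Nrp1, a semaphorin co-receptor, was present in 11.2% against 28.1%. Both comparisons share the 143 members and 2034 of the comparator barcodes.

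**Figure D3:**
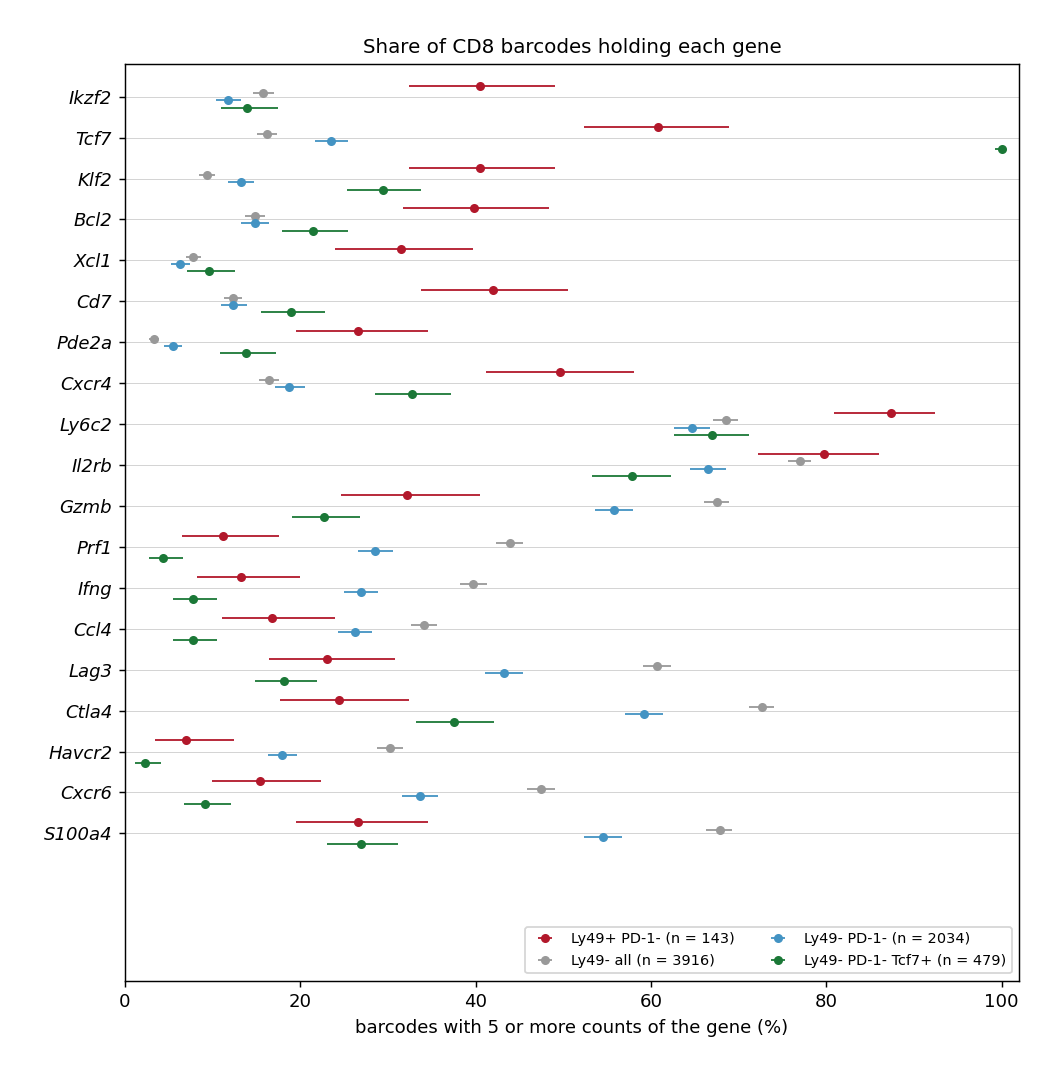
Share of barcodes with 5 or more counts of each gene (x axis, %) in members (red), all CD8 barcodes without Ly49 (grey), those without Pdcd1 (blue) and those without Pdcd1 that held Tcf7 (green), with 95% exact binomial intervals. Ikzf2 stood at 40.6% in members and at 11.8 to 15.8% in the other arms; Tcf7 is 100% by definition in the green arm.

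The Tcf7-bearing PD-1- CD8 barcodes without Ly49 (479, median 21603 counts) were taken as a further comparator. Only these barcodes were chosen on Tcf7, a gene of the naive and recirculation list, and the members were not. The higher naive and recirculation genes of the other comparisons were not seen against them. How much of this follows from that choice was not tested. Of 5969 genes examined, 157 were called higher (2.63%) and 109 lower (1.83%), with a median log2 ratio of 0.02. With every barcode weighted equally 47.8% of the calls were higher, against 59.0% as first computed. Of 14 naive and recirculation genes, Tcf7 among them, 0 were called higher and 3 lower: Ccr7 (log2 ratio -1.69), Dapl1 (-1.31) and Slamf6 (-1.04). Klf2 was present in 40.6% of members and 29.4% of these barcodes (25.4 to 33.7; log2 ratio 0.13). Ikzf2 was still called higher, with a log2 ratio of 1.56 (40.6% against 13.99%, interval 11.01 to 17.4), and so were Xcl1 (1.54), Cd7 (1.41), Klrb1c (2.56), Fcer1g (1.06) and Tyrobp (1.26). Ly6c2 had a ratio of 0.61, not called.

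Of 6 examined NKG2 and related lectin receptor genes, 1 was called higher against all comparators and 1 against the PD-1- ones. The list medians there were below 0, at -0.45 and -0.26. Against the Tcf7-bearing barcodes 3 of 6 were called higher, with a median of 0.90. They were Klre1, Klri2 and Klrb1c, and Klre1, part of an inhibitory or activating NK receptor complex, was present in 28.0% of members and 6.68% of these barcodes (log2 ratio 1.96). Klre1 was not called against the PD-1- comparator as a whole (0.21). The cytotoxic and inhibitory receptor lists lay on the other side here from their place against the PD-1- comparator. Of 12 cytotoxic genes 0 were called higher and 1, Gzmk, lower (-1.55), but 9 lay above 0 and the list's median was 0.46. Of 7 inhibitory receptor genes 2 were called higher and 0 lower, with a median of 0.40. Entpd1, the ectonucleotidase CD39, was present in 9.79% of members and 1.04% of these barcodes (log2 ratio 3.06). Havcr2 was also called higher (1.97), but a single barcode held 43.9% of its counts in members, and it was present in 6.99% against 2.296%. Since 56 members lacked Tcf7, these values set a mixed population against one in which every barcode held it.

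The members themselves were mixed. Among the 87 with Tcf7, Ikzf2 was present in 50.6% (44 barcodes, interval 39.6 to 61.5), and among the 56 without it in 25% (14.4 to 38.4). Gzmb was present in 20.7% of members with Tcf7 (12.7 to 30.7) and 50% of those without (36.3 to 63.7). In PD-1- comparators, Ikzf2 was present in 13.99% with Tcf7 and 11.1% without, and Gzmb in 22.8% and 66.0%.

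By gate gene, a split chosen after its values were seen, the 17 members with Klra9 alone stood apart from the 51 with Klra7 alone. Gzmb was present in 70.6% of those with Klra9 alone (12 barcodes, interval 44.0 to 89.7) and 29.4% of those with Klra7 alone (17.5 to 43.8), Lag3 in 58.8% and 25.5%, and Cxcr6 in 52.9% and 9.80%. Tcf7 was present in 29.4% and 51.0%, and Ikzf2 in 5.88% and 33.3%. Klra6 alone was accompanied by Tcf7 in 78.6% of 14 barcodes, and Klra1 alone in 54.5% of 11. In the 50 members with more than 1 gate gene, Tcf7 was present in 78.0% (64.0 to 88.5), Ikzf2 in 56.0% and Xcl1 in 50%. Intervals are wide at these numbers, and the sharing of Klra9 sequence with Klra3 given above touches the Klra9 group.

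**Figure D4:**
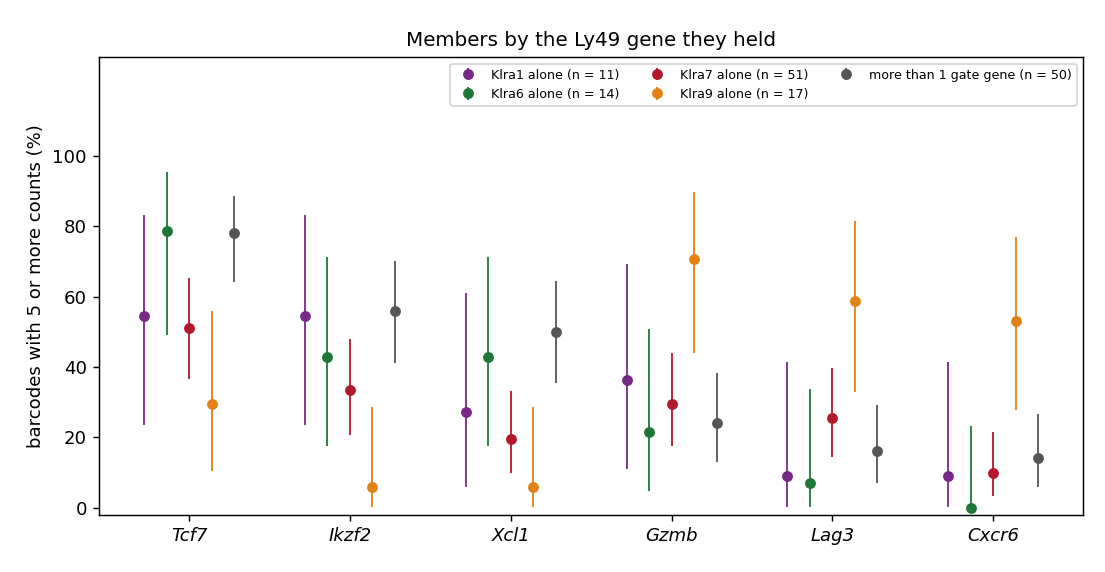
Share of members with 5 or more counts of 6 genes (y axis, %), by the gate gene or genes they held, with 95% exact binomial intervals. Members with Klra9 alone (orange) stood at 70.6% for Gzmb and 5.88% for Ikzf2, and those with Klra7 alone (red) at 29.4% and 33.3%.

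By Cd8 gene, also split after values were seen, the 71 members with Cd8b1 differed from the 72 with Cd8a only. Ikzf2 was present in 28.2% with Cd8b1 (18.1 to 40.1) and 52.8% with Cd8a only (40.7 to 64.7), Xcl1 in 19.7% and 43.1%, and Tcf7 in 50.7% and 70.8%. Lag3 was present in 36.6% and 9.72%, Ctla4 in 35.2% and 13.9%, and Cd3e in 62.0% and 34.7%. Ly6c2 was present in 85.9% and 88.9%. Median total counts were 28799 and 20783. In PD-1- comparators with Cd8b1, Ikzf2 was present in 11.02% (9.57 to 12.6), Tcf7 in 22.7%, Xcl1 in 6.48%, Ctla4 in 63.5% and Gzmb in 58.6%. Members with Cd8b1 held Gzmb in 39.4%, so each of these 5 genes lay in the same direction when only barcodes with Cd8b1 were set against each other. The contrast was smaller for Lag3, at 36.6% of members with Cd8b1 (25.5 to 48.9) and 46.4% of these comparators (44.0 to 48.8), with overlapping intervals. Cxcr6 was present in 22.5% (13.5 to 34.0) and 36.3% (34.0 to 38.6).

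The 641 Ly49 barcodes with neither Cd4 nor Cd8, of which 608 also lacked Pdcd1, are given beside the members with Cd8a only. In them Ikzf2 was present in 53.4%, Tcf7 in 53.4%, Xcl1 in 41.3%, Cd7 in 56.0%, Ly6c2 in 83.2%, Ctla4 in 11.2%, Lag3 in 4.21% and Gzmb in 18.4%, at a median of 16666 counts. Trac was present in 63.2% of them and Trbc2 in 80.7%, Klrb1c in 17.8%, Fcer1g in 46.6% and Ncr1 in 2.34%. The Ikzf2 and Xcl1 shares of members thus were not particular to barcodes with a Cd8 gene. The 72 Ly49 CD8 barcodes with Pdcd1, at a median of 61858.5 counts, held Ikzf2 in 37.5%, Tcf7 in 23.6%, Gzmb in 86.1% and Ctla4 in 91.7%.

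**Figure D5:**
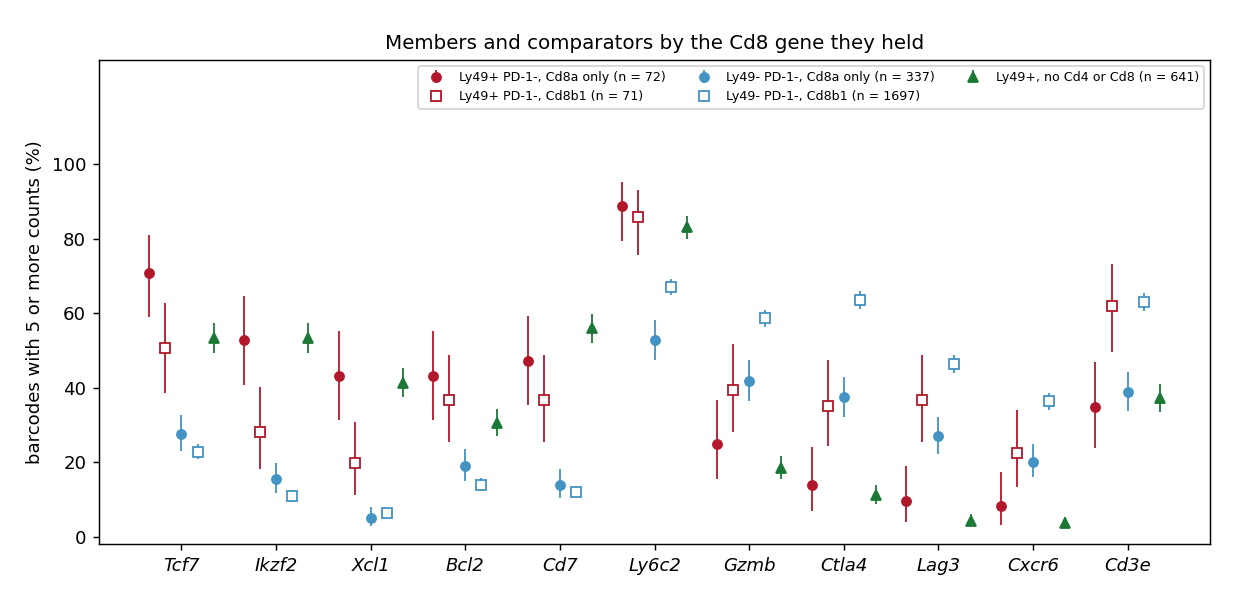
Share of barcodes with 5 or more counts of 11 genes (y axis, %) in members (red) and PD-1- CD8 barcodes without Ly49 (blue), split into Cd8a only (filled circles) and Cd8b1 (open squares), and in Ly49 barcodes with neither Cd4 nor Cd8 (green triangles), with 95% exact binomial intervals. Ikzf2 stood at 52.8% and 28.2% in members and at 15.4% and 11.02% in the comparator.

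Ly49-positive PD-1- barcodes were found in 5 of the 6 listed hashtags. Of the CD8 barcodes called for A0301, 32 of 584 were members (5.48%, interval 3.78 to 7.65), for A0303 2 of 134 (1.49%), for A0304 4 of 222 (1.80%), for A0305 7 of 215 (3.26%) and for A0306 15 of 329 (4.56%, 2.57 to 7.41). For A0302 the count was 0 of 93 (approximate upper limit 3.23%, exact interval up to 3.89%). The interval of A0301 overlapped those of all other listed hashtags. No hashtag was called for 82 members (among 2501 CD8 barcodes). Some of the genes were also read in A0301 and in A0306, which had only 15 members. Tcf7 was present in 59.4% and 60.0% of their members and in 27.6% and 21.1% of their PD-1- comparators. Ikzf2 was present in 46.9% and 26.7% against 13.7% and 13.5%, and Ctla4 in 21.9% and 20% against 49.5% and 59.6%. In A0306 the members' intervals for Tcf7 (32.3 to 83.7) and Ctla4 (4.33 to 48.1) left out the comparator's share. Those for Ikzf2 (7.79 to 55.1), Gzmb (46.7%, 21.3 to 73.4, against 55.0%), Lag3, Cxcr6 and Cd7 included it.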

How the data were processed

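Both tables were deposited by the authors as whole-number counts, of 27635 genes in 12016 barcodes and of 14 hashtags per barcode. Per the submitters' processing notes, the genome build was GRCm38 and the tools, without roles, were R 3.5.3, cutadapt 2.10 and Bowtie2 (2.4.2 and 2.3.4.1). The sources used here do not say whether molecular identifiers were collapsed. The median non-zero count was 7, so counts were treated as reads, which are not independent molecules. Barcodes held 4138 to 892142 counts. No doublet caller was run.

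Computed here were the gates, shares with 95% exact (Clopper-Pearson) intervals, summed CPM and log2 ratios, with numpy 2.4.6, scipy 1.17.1, pandas 2.3.3 and matplotlib 3.10.9 under Python 3.11.15. The approximate upper limit for a share of 0 was 3 barcodes divided by the number of barcodes. Macrophage barcodes had 5 or more counts of Csf1r and Adgre1, melanoma barcodes 10 or more of Mlana and under 5 of Ptprc, and both, except where Cd8 itself was read, under 5 of each Cd8 gene. A hashtag was called when it raised the log likelihood by 3 over background and over any other, which called 5186 barcodes (45.8%). Genes named are the 10 highest and 10 lowest called ratios present in at least 20% of the higher arm (gate, Klra, mitochondrial, ribosomal and predicted genes left out), plus gene lists; 1 gene among them is not reported here. The members and lists were chosen with earlier results of these data known. Comparison scripts were checked on simulated data. Alternatives were other gates, filters, scalings, depths and hashtags.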

Additional observations from a re-analysis of the deposited data

Results flagged for a closer look

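Of the CD8 barcodes, 53 were called for hashtags A0307 to A0312, which the labels do not list; 1 of them was a member. The table holds 14 hashtag columns against 6 listed, and these barcodes entered no value by hashtag.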

How the results depend on the processing

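The share of members fell from 3.46% to 2.37% of CD8 barcodes with a Klra limit of 10 counts and to 1.70% when barcodes were thinned to 10000 counts and gated again. Against all CD8 barcodes without Ly49, where 252 genes were called higher and 332 lower, 380 were higher with the Klra limit of 10, 11797 higher and 639 lower without the filter on low genes, 419 higher with Cd8b1 required in both arms, and 559 lower with equal weight per barcode. Against the PD-1- comparator, where 151 and 167 were called, 269 were higher with the Klra limit of 10, 9227 higher and 588 lower without the filter, 300 higher and 272 lower with Cd8b1 required, 272 higher when thinned, and 285 lower with equal weight. Against the Tcf7-bearing barcodes, where 157 and 109 were called, 330 were higher and 219 lower with members limited to those with Tcf7, 255 higher when thinned, and 187 lower with equal weight. The requirement of Cd8b1, leaving out members with Klra9 alone, the limit to members with Tcf7, and the thinned and equal-weight values against Tcf7-bearing barcodes were added after seeing the data. The causes of these moves were not tested, except that without A0301, at a hashtag gain of 6, with Cd8b1 required and with members limited to those with Tcf7, no hashtag met the minimum of 20 members and no sign condition applied. Leaving out each hashtag in turn kept all counts within 1.5 times. Of the 380 values of the named genes over the alternatives, 379 stayed called against all comparators and 375 against the PD-1- ones, and 0 changed sign. These genes were chosen for the largest ratios in the same barcodes, so this says little about the other calls. Over all 584 calls against all comparators, 60.1% were kept without barcodes holding Mki67 or Top2a, the lowest share. Over all 318 against the PD-1- ones, the lowest was 64.5%, with Cd8b1 required. No paired analysis was possible because the series holds 1 capture and its replicate numbers only name samples.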

Other observations

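Over all genes examined, 2.51% were called higher and 2.77% lower against the PD-1- comparator, and 2.63% and 1.83% against the Tcf7-bearing barcodes. At these shares, 0 calls in a list of 8 or 4 genes say little about its genes. Of 8 cell cycle genes 0 were called between the members and PD-1- CD8 barcodes without Ly49, with a median log2 ratio of -0.0012. Mki67 was present in 13.99% of members and 17.4% of comparators. Against the Tcf7-bearing barcodes 3 of the 8 were called higher (Cdk1, Ccnb1 and Ccna2), with Ccnb1 present in 6.99% and 1.88%. Of 8 interferon-stimulated genes 1, Ifi27l2a, was called lower, at -1.17 against the PD-1- comparator, where all 8 lay below 0 with a median of -0.51, beside -0.01 over all genes examined. None of the 4 class I MHC genes, whose products are ligands of Ly49 and NKG2 receptors, was called, and H2-K1 and B2m had ratios of -0.11 and -0.08. Of 9 cytokine receptor genes 2 were lower, the interleukin receptor genes Il2ra (-1.39) and Il10ra (-1.77). Ptpn6, the gene of SHP-1, was present in 28.0% and 24.5% (ratio -0.07).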
